A study of Mus musculus with 2 samples.

Results

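The cilium genes described here are the protein-coding genes whose symbols begin with Ift, Bbs, Nphp or Dnah followed by a number, or are Dnai1 or Dnai2, in release M21 of the GENCODE mouse annotation. This rule used names alone and found 40 genes among 22028 protein-coding genes and 55536 genes in all. Of these, 25 build or serve the primary cilium (14 Ift, 8 Bbs and 3 Nphp genes) and 15 are Dnah genes, which encode heavy chains of the dyneins of motile axonemes. No gene carried the symbol Dnai1 or Dnai2, since release M21 lists these intermediate chains as Dnaic1 and Dnaic2. Their values are given beside the members.

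The study measured polyadenylated RNA of whole mouse hearts at embryonic day 12.5 in 2 libraries, replicate 1 and replicate 2, which form a single group. The hearts came from B6NCrl embryos of both sexes pooled together, so a library is no single embryo and has no sex. The RNA input was 10 ng per library with ERCC spike-in transcripts added, and libraries were made by Nextera tagmentation. The labels number the libraries as biological replicates 1 and 2, each with technical replicate number 1. Both biosamples have the same donor identifier in the labels, so errors here measure the spread between 2 samples under 1 donor identifier. No treatment, mutant or second stage was compared. The comparisons are therefore between primary cilium and motile axoneme genes within a library, and between the libraries.

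A primary cilium is a single, non-motile antenna that receives Hedgehog and other signals, and in the embryonic heart it is found on cells of the endocardial cushions, the myocardium and the epicardium. Intraflagellar transport (IFT) trains carry its building blocks, with IFT-B complexes moving towards the tip behind kinesin-2 and IFT-A complexes returning with cytoplasmic dynein-2. The BBSome, a coat of Bardet-Biedl syndrome proteins, rides these trains and removes membrane receptors, while nephronophthisis (NPHP) proteins form part of the gate at the cilium base. Motile cilia use the same transport but also carry inner and outer arms of axonemal dynein, which bend the axoneme in airways, brain ventricles, oviduct and the embryonic node, and in sperm tails.

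The tables held 34248993 gene counts for replicate 1 and 31394912 for replicate 2. All 8 heart muscle markers were detected, with summed levels of 31074 and 31292 TPM, the deposited abundance scaled for transcript length and library size. Of 9 markers of airway or foregut epithelium, 1 was detected, and the list summed to 4.53 (replicate 1) and 6.82 TPM (replicate 2). Epcam was the detected one, at 2.24 (replicate 1) and 3.02 TPM (replicate 2). Cdh1 stood at 1.09 and 0.68 TPM, and Nkx2-1 at 0.09 and 1.02 TPM. Nkx2-1 was called lower in replicate 1 by the exact test between the libraries (log2 ratio -3.28, adjusted p = 5.4e-09). The other 6 were under 1 TPM in both libraries. Among them, Scgb1a1 was at 0 in both, and Sftpc was at 0 in replicate 1 and 0.91 TPM in replicate 2. Of 6 neural tube and ependyma markers, 1 was detected, and the list summed to 8.61 and 7.29 TPM. Most of that sum was Tubb3, the detected marker, at 7.13 (replicate 1) and 5.93 TPM (replicate 2). Sox3 stood at 0.93 and 1.14 TPM. The other 4 were under 1 TPM in both libraries, with Olig2 and Sox1 at 0. Hepatocyte markers summed to 174.2 (replicate 1) and 37.1 TPM (replicate 2), and all 8 were called higher in replicate 1. In whole tissue, fewer cells with a cilium and less RNA per cell cannot be told apart.

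All 25 primary cilium genes were detected, meaning at least 1 TPM in both libraries, as were 3 of 15 motile axoneme genes (Dnah7b, Dnah8 and Dnah14). Of all protein-coding genes, 56.6% were detected. The median level of primary cilium genes was 11.3 (replicate 1) and 12.1 TPM (replicate 2). Motile axoneme genes had medians of 0.07 and 0.08 TPM, and all protein-coding genes had medians of 3.24 and 3.27 TPM. The classes did not overlap in either library: the lowest primary cilium gene stood at 2.11 (replicate 1) and 1.99 TPM (replicate 2), and the highest dynein at 2.05 and 1.82 TPM. Their edges nearly met, since Nphp4 and Dnah7b lay within each other's counting intervals.

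The median of log2(TPM + 0.1) was higher for primary cilium than for motile axoneme genes by 6.06 in replicate 1 and by 6.08 in replicate 2. The mean difference was 6.07 ± 0.016 (SD, n = 2). An exact sign-flip permutation test, two-sided, gave p = 0.5, the smallest value that 2 libraries allow, so this design cannot reach a threshold of 0.05. Summed levels were 499.7 ± 16.9 TPM for primary cilium genes and 7.56 ± 0.46 TPM for motile axoneme genes (SD, n = 2 each).

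**Figure D1:**
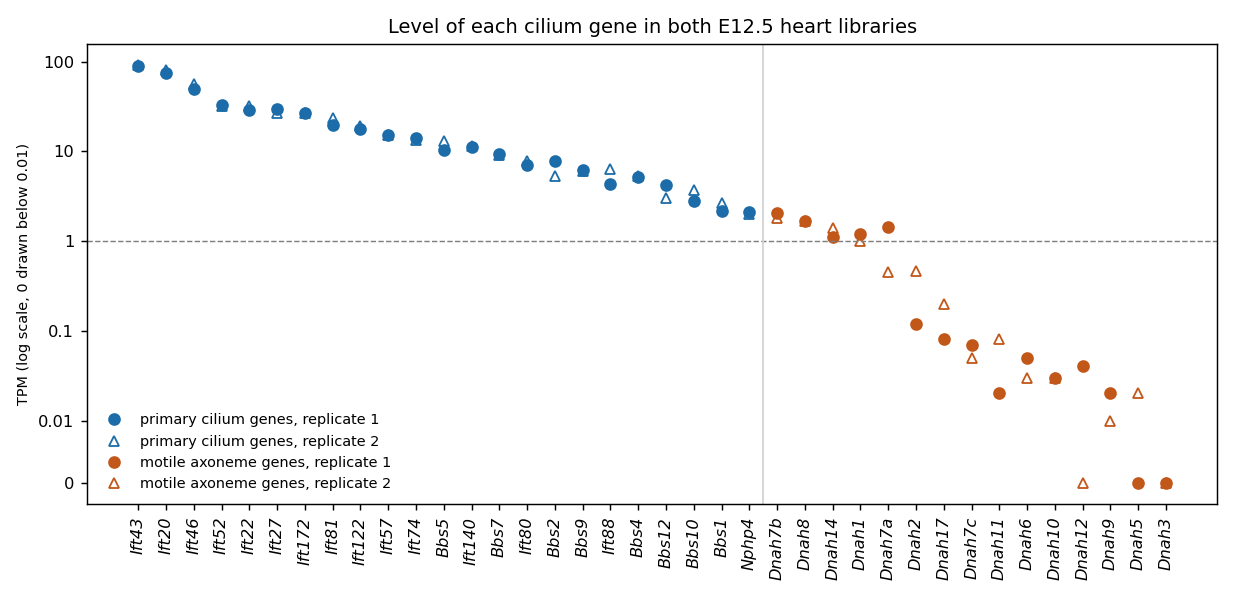
TPM of 38 of the 40 genes in replicate 1 (filled circles) and replicate 2 (open triangles) on a log axis, with 23 primary cilium genes in blue and 15 motile axoneme genes in orange, ordered by mean level. All blue symbols lie above the dashed line at 1 TPM, and 10 of 15 orange genes lie below it in both libraries.

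Each gene's level was also set against 1 TPM with limma, which asks whether log2(TPM + 0.1) departs from the value at 1 TPM by more than the spread between libraries, with Benjamini-Hochberg adjustment over 24311 genes. All 25 primary cilium genes were called above 1 TPM, beside 73% of the 16493 protein-coding genes tested. Of the 14 dyneins that could be tested, 2 were called above (Dnah7b and Dnah8) and 9 below, beside 17.6% of protein-coding genes called below. Dnah1, Dnah7a and Dnah14 were not called in either direction, and Dnah3 had no counts to test. The call of Dnah2 below 1 TPM (adjusted p = 0.044) was lost with limma at a pseudocount of 0.01 (adjusted p = 0.067), without the count filter (adjusted p = 0.063) and without a trend (adjusted p = 0.084), which left 8 dyneins below. Over all alternatives its adjusted p in limma ran from 0.012 to 0.084.

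The IFT-A complex is represented by 3 genes under Ift names. Ift43 encodes a small subunit and was the highest of all 40 genes, at 88.7 (replicate 1) and 92.2 TPM (replicate 2). Ift122, a core subunit, stood at 17.8 and 19.1 TPM. Ift140, the other core subunit under this name, stood at 11.3 and 11.6 TPM. All 3 lay above 1 TPM by limma (adjusted p between 4.4e-06 and 3.1e-05), and their order was the same in both libraries. Ift43 exceeded 93.1% of protein-coding genes by mean level.

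The core of IFT-B was represented by 7 genes, all detected, whose levels spanned 4.37 to 49.4 TPM in replicate 1 and 6.31 to 56.0 TPM in replicate 2. Ift46 was the highest, at 49.4 (replicate 1) and 56.0 TPM (replicate 2). Ift52, which holds the core together, followed at 32.7 and 32.2 TPM. A pair of Rab-like small GTPases of the train came next and changed places between the libraries. Ift22 stood at 28.9 (replicate 1) and 31.9 TPM (replicate 2). Ift27, which links the trains to exit of the BBSome, stood at 29.8 and 26.8 TPM. Their order cannot be separated by the spread between libraries.

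Ift81 and Ift74 encode the pair that binds tubulin as cargo. Ift81 stood at 19.7 (replicate 1) and 23.4 TPM (replicate 2). Ift74 stood at 14.1 and 13.4 TPM, below its partner in both. Ift88, whose hypomorphic allele gives polycystic kidneys in the mouse, was the lowest gene under an Ift name, at 4.37 (replicate 1) and 6.31 TPM (replicate 2). Limma placed Ift88 above 1 TPM by 2.28 ± 0.17 on the log2(TPM + 0.1) scale (SE, adjusted p = 0.0021).

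The peripheral part of IFT-B was represented by 4 genes. Ift20, whose protein also works at the Golgi, reached 75.3 (replicate 1) and 80.9 TPM (replicate 2), the second highest of the members in both. Ift172, a large subunit, stood at 26.6 and 26.5 TPM. Ift57 stood at 15.2 (replicate 1) and 15.4 TPM (replicate 2). Ift80, mutated in human skeletal ciliopathy, was the lowest of the group at 7.04 and 7.77 TPM. Within this group the order was the same in both libraries.

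Across the 25 primary cilium genes, higher TPM went with a shorter gene model, with a Spearman rho of -0.68 in replicate 1 and -0.67 in replicate 2. The rho over 12468 detected protein-coding genes was -0.29 and -0.28. The points share a library and a length normalization, so these values are descriptions without a test.

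The 8 Bbs genes were detected at lower levels than most Ift genes, with a median of 5.71 (replicate 1) and 5.32 TPM (replicate 2), against 23.1 and 24.9 TPM for the 14 Ift genes. Of the 6 that encode BBSome subunits, Bbs5, which binds phosphoinositides, was highest at 10.3 (replicate 1) and 13.1 TPM (replicate 2). Bbs7 stood at 9.41 and 9.20 TPM. Bbs2 stood at 7.73 and 5.26 TPM and Bbs9 at 6.24 and 6.06 TPM, so their order differed between the libraries. Both encode propeller-bearing subunits of the complex.

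Bbs4, a repeat-rich subunit, stood at 5.18 (replicate 1) and 5.38 TPM (replicate 2). Bbs1, the subunit that meets the GTPase Arl6 at the membrane, was the lowest of the BBSome genes at 2.16 and 2.63 TPM. Limma placed Bbs1 above 1 TPM by 1.18 ± 0.14 on the log2(TPM + 0.1) scale (SE, adjusted p = 0.0061), a call that was lost on the older annotation described further on. Bbs12 and Bbs10 encode chaperonin-like proteins that help assemble the BBSome. Bbs12 stood at 4.21 (replicate 1) and 3.04 TPM (replicate 2). Bbs10 stood at 2.78 and 3.68 TPM. Which of the pair was higher differed between the libraries.

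Of the 3 Nphp genes, all were detected. Nphp4, a scaffold of the transition zone, was the lowest primary cilium gene by mean level, at 2.11 (replicate 1) and 1.99 TPM (replicate 2). It lay above 1 TPM by 0.97 ± 0.12 on the log2(TPM + 0.1) scale with limma (SE, adjusted p = 0.0073).

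Among outer arm heavy chains, Dnah8, known from sperm flagella, was the highest at 1.67 (replicate 1) and 1.69 TPM (replicate 2). Dnah17, its partner in sperm, stood at 0.08 and 0.20 TPM, from 29 and 44 expected counts. In replicate 2, 0.07 TPM of this lay on Dnah17-205, a transcript model of 762 bases, from 1 expected count. The outer arm chains of motile cilia were at or near 0. Dnah5, the gamma-type heavy chain, stood at 0 (replicate 1) and 0.02 TPM (replicate 2). Dnah9 stood at 0.02 and 0.01 TPM. Dnah11, whose mutation randomises left-right position of the heart in the mouse, stood at 0.02 and 0.08 TPM. Rounded counts behind these 3 genes were between 1 and 7 per library, and limma called each below 1 TPM (adjusted p between 0.0011 and 0.0031).

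Of 9 inner arm heavy chains, Dnah7b was the highest at 2.05 (replicate 1) and 1.82 TPM (replicate 2), with 271.2 and 285.7 expected counts. Dnah1 stood on both sides of the detection level, at 1.20 and 0.99 TPM. Dnah7a did so more widely, at 1.43 (replicate 1) and 0.45 TPM (replicate 2). The other 6 stayed under 1 TPM in both libraries. Dnah2 stood at 0.12 and 0.46 TPM, from 26.2 and 28.0 expected counts. In replicate 2, 0.37 TPM of this lay on Dnah2-205, a transcript model of 386 bases, from 2.38 expected counts. Its coding models together held 0.08 and 0.09 TPM. Dnah7c stood at 0.07 and 0.05 TPM. Dnah6 stood at 0.05 and 0.03 TPM, from 14.5 and 9 expected counts.

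Dnah10 stood at 0.03 TPM in both libraries. Dnah12 stood at 0.04 (replicate 1) and 0 TPM (replicate 2), with 11 and 1 expected counts. Dnah3 had no counts in either library on release M21. The same reads on the older release M4, described further on, gave it 3 counts (0.01 TPM) in replicate 1 and 0 in replicate 2. A count of 0 allows up to 0.017 (replicate 1) and 0.019 TPM (replicate 2) for Dnah3, at 3 counts per library and covering counting error only. Dnah14, whose place in an arm is not assigned here, stood at 1.1 (replicate 1) and 1.4 TPM (replicate 2). The intermediate chain genes of the outer arm, Dnaic1 and Dnaic2, had levels of 1.65 and 1.07 TPM and of 0.25 and 0.21 TPM.

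A gene's TPM sums over its annotated transcript models, and a read on a short model adds more TPM than a read on a long one. Of the summed transcript TPM, protein-coding models held a median of 86.7% in replicate 1 and 89.7% in replicate 2 over the 25 primary cilium genes. Over the 13 dyneins with any transcript TPM in a library, this median was 38.5% in replicate 1 and 20.1% in replicate 2. It was 92.8% and 92.6% over detected protein-coding genes. The share lay under 50% in 2 of 25 primary cilium genes in each library, and in 7 of 13 dyneins in replicate 1 and 8 of 13 in replicate 2. Of protein-coding genes under 3 TPM in both libraries with a count in each, 14.3% and 14.9% had a share that low. By expected counts instead of TPM the classes lay closer, with coding models holding a median of 91.5% and 94.0% over the 25 primary cilium genes and 92.1% and 86.5% over the 14 dyneins with a count.

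The detected dyneins, and Dnah1 and Dnah7a near the detection level, owed much of their TPM to short models without a full reading frame. Dnah14 stood at 0.99 (replicate 1) and 1.40 TPM (replicate 2) on Dnah14-208, a retained-intron model of 1999 bases at chr1:181813458-181815774. Of these bases, 534 lie in exons of other genes on the opposite strand, among them Lbr, the lamin B receptor, which stood at 82.1 and 78.1 TPM. The coding model of Dnah14 that held any TPM stood at 0.01 TPM in replicate 1 and 0 in replicate 2. Whether reads were assigned by strand is not given in the sources used here, so reads of Lbr and of Dnah14-208 cannot be told apart where they overlap.

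Dnah8 drew 0.59 (replicate 1) and 0.54 TPM (replicate 2) from Dnah8-215, a retained-intron model of 1261 bases. A further 0.48 and 0.39 TPM came from Dnah8-220, a retained-intron model of 3099 bases. Its coding models together held 0.22 and 0.34 TPM, although 48.5% and 70.7% of its expected counts were assigned to them. The coding model of Dnah1 held 0.13 (replicate 1) and 0.17 TPM (replicate 2). The rest of its level, 1.07 and 0.82 TPM, lay on Dnah1-202, a processed transcript of 2897 bases. In Dnah7a, 97.9% of the TPM in replicate 1 and 93.3% in replicate 2 lay on Dnah7a-202, a processed transcript of 732 bases, from 21.9 and 5.94 expected counts.

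Dnah7b was the dynein with the most reads on a full-length model. Dnah7b-201, a coding model of 12314 bases, held 238.7 expected counts in replicate 1 and 251.9 in replicate 2, or 88.0% and 88.2% of the gene's counts. This model's level was 0.79 (replicate 1) and 0.92 TPM (replicate 2). Dnah7b-203, a model of 740 bases marked for nonsense-mediated decay, held 0.63 and 0.50 TPM from 10.0 and 7.1 expected counts. Counted on coding models alone, 24 of 25 primary cilium genes and none of 15 dyneins reached 1 TPM in both libraries, beside 55% of protein-coding genes. The exception was Bbs1, at 0.76 (replicate 1) and 1.38 TPM (replicate 2). On this count the classes overlapped in replicate 1, where Bbs1 lay below Dnah7b at 0.79 TPM.

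**Figure D2:**
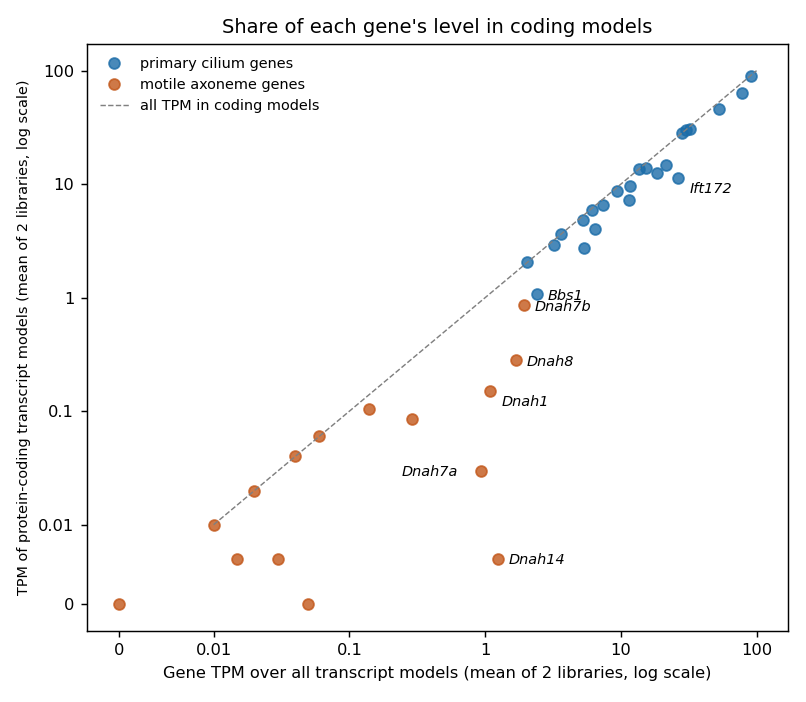
Mean TPM over all transcript models (x axis) and over protein-coding models alone (y axis) for 23 primary cilium genes (blue) and 15 motile axoneme genes (orange), both on log axes with 0 drawn below 0.01. Most blue points lie near the dashed line of equality. Ift172 and Bbs1 lie farthest below it among them, and Ift88, Bbs2 and Ift140 also lie below it. Dnah7b, Dnah8, Dnah1, Dnah7a and Dnah14 fall progressively farther below it.

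Short models carried part of the level of some primary cilium genes too. Ift172 had 41.3% of its TPM in replicate 1 and 39.5% in replicate 2 on Ift172-201, the coding model of 5403 bases, which held 11.0 and 10.5 TPM. Ift172-205, a retained-intron model of 742 bases, held another 6.22 and 6.11 TPM. In Ift46, a coding fragment of 229 bases, Ift46-209, held 13.8 (replicate 1) and 16.2 TPM (replicate 2) from 44.3 and 47.1 expected counts. By mean share of TPM over the libraries, the leading model was protein-coding in all 25 primary cilium genes. It was so in 8 of the 14 dyneins with any transcript TPM, though not always in both libraries. Among these 8, Dnah2-201 held 61.5% of the gene's TPM in replicate 1 and 19.6% in replicate 2. No share over all protein-coding genes is given beside these counts.

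The genes Dnah7a, Dnah7b and Dnah7c are near-identical copies on chromosome 1, at chr1:53397006-53706784 (minus strand), chr1:46066315-46373546 (plus strand) and chr1:46425592-46807476 (plus strand). Their longest coding models are 96.8% to 97.3% identical over 12072 aligned coding bases. Of all stretches of 100 bases in Dnah7b-201, 12.2% occur unchanged in Dnah7a-201 and 17.1% in Dnah7c-204. Reads from such stretches are shared out by estimation, so the split among the copies carries an error of estimation. The deposited posterior standard deviation of the count was 2.01 in replicate 1 and 2.12 in replicate 2 for Dnah7b, beside 271.2 and 285.7 counts. For Dnah7c it was 2.62 and 2.06, beside 21.04 and 12.48 counts.

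Shown here to let the copies be compared are the first 150 gap-free aligned bases of their coding models in GENCODE M21 (mm10), spliced and read along the coding strand, with capitals at the 13 positions where the copies differ. The stretches span chr1:53686599-53706692, chr1:46066990-46083713 and chr1:46425613-46455763 including introns.
Dnah7a-201: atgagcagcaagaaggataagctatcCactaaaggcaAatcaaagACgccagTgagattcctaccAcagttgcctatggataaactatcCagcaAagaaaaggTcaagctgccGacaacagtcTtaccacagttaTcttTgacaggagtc
Dnah7b-201: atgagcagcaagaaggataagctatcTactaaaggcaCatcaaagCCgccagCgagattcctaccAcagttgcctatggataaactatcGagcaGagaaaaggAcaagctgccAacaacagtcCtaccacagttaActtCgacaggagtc
Dnah7c-204: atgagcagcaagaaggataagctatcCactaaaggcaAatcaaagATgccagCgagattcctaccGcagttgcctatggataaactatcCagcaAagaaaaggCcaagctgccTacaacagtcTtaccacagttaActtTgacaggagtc

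Exons of 15 members overlap an exon of another gene in release M21, 5 of them primary cilium genes and 10 of them dyneins. The share of all protein-coding genes with such an overlap is not given, so these counts have no background. The primary cilium genes concerned include Bbs12, Bbs4, Ift57 and Ift88. Bbs4 shares 194 exon bases with Adpgk on the opposite strand, which stood at 24.4 (replicate 1) and 24.6 TPM (replicate 2). Ift88 shares 67 with the antisense gene Ift88os, at 0.17 and 0.12 TPM. Among dyneins, Dnah2 shares 312 with Dnah2os, which stood at 1.32 (replicate 1) and 1.94 TPM (replicate 2), above Dnah2 itself. Dnah3 shares 1506 with Lyrm1, at 7.20 and 7.61 TPM, and was nevertheless assigned no counts on release M21. Dnah11 shares 642 with Cdca7l, and Dnah17 shares 93 with Pgs1.

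The authors also deposited the same reads counted on the older GENCODE release M4. Most primary cilium genes changed little between releases, with log2 ratios of M21 over M4 from -0.07 to 0.07 in 20 of 25 genes in both libraries. Ift172 was higher on M21, at 26.6 (replicate 1) and 26.5 TPM (replicate 2), against 13.0 and 12.4 TPM on M4. Bbs1 stood at 2.16 and 2.63 TPM on M21 and at 0.93 and 1.03 TPM on M4. On M4, 24 of 25 primary cilium genes were detected, the exception being Bbs1, and limma called 24 above 1 TPM. The shares of protein-coding genes given above are for M21, and none is given for M4.

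The dyneins moved more. Dnah8 stood at 1.67 (replicate 1) and 1.69 TPM (replicate 2) on M21, against 0.42 and 0.52 TPM on M4, from nearly the same expected counts. Those counts were 148.7 and 162.5 on M21 and 144.6 and 162.0 on M4. Dnah1 stood at 1.20 and 0.99 TPM on M21 and at 0.38 and 0.35 TPM on M4. Dnah14 was listed at 0 on M4 in both libraries. Dnah7b kept its level, at 2.14 (replicate 1) and 1.89 TPM (replicate 2) on M4, and was the 1 dynein detected there.

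**Figure D3:**
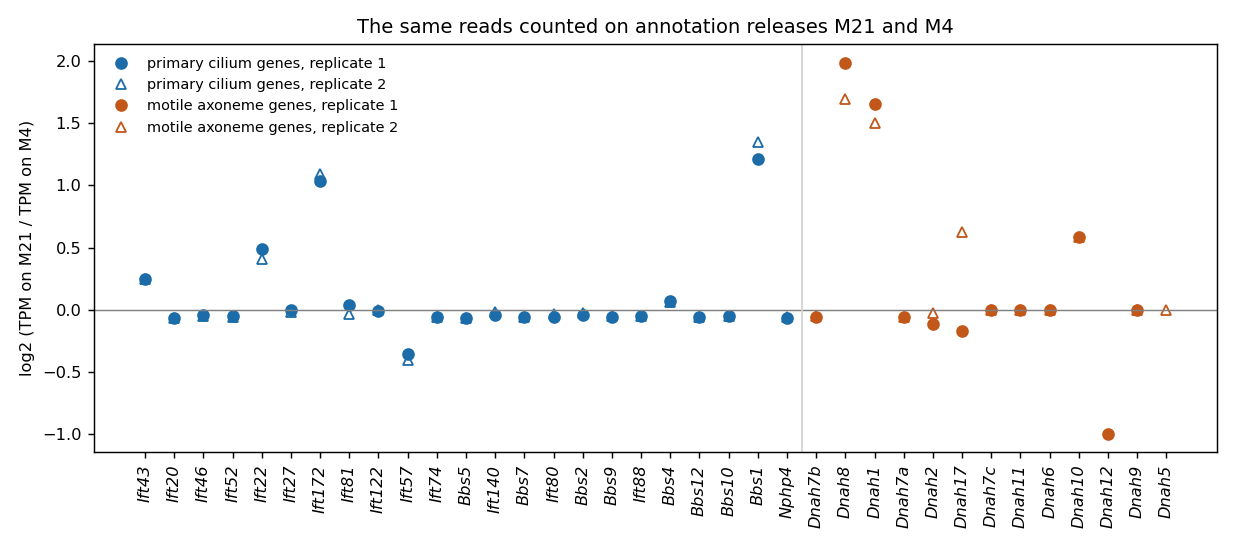
Log2 of TPM on release M21 over TPM on release M4 for 36 members with a level above 0 on both, in replicate 1 (filled circles) and replicate 2 (open triangles), with primary cilium genes in blue and motile axoneme genes in orange. Most genes lie near 0, whereas Dnah8, Dnah1, Bbs1 and Ift172 lie above 1 in both libraries. Dnah14 and Dnah3 have no ratio in either library.

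Counts of the 2 libraries were compared by a two-sided exact binomial test conditioned on their sum, which covers counting error alone. It compares these libraries and no conditions. Ratios are replicate 1 over replicate 2 after scaling by the trimmed mean of M-values (TMM), and a call needed an adjusted p under 0.05 with a log2 ratio of at least 1 in size. None of the 34 members with a summed count of at least 20 was called, beside 1.57% of the 17970 genes tested. With DESeq2 size factors the count was also 0. At an unadjusted p under 0.05 there were 5 members. The share of all tested genes at that level is not given, so this count has no background beside it. The log2 ratio was under 0.25 in size in 26 of 34 members, beside 76.0% of all tested genes.

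Bbs12 was higher in replicate 1 by a log2 ratio of 0.48 (95% interval 0.19 to 0.78), with 239 counts in replicate 1 and 158 in replicate 2 (exact test, adjusted p = 0.016). Bbs5 was lower in replicate 1, with a log2 ratio of -0.36 (95% interval -0.61 to -0.12), from 264 and 314 counts (exact test, adjusted p = 0.032). Both passed the adjusted p without the fold requirement, as did 10.0% of all genes tested. Ratios of the dyneins were less precise. For Dnah7a the log2 ratio was 0.87 (95% interval -0.05 to 1.89), from 29.8 counts in replicate 1 and 14.8 in replicate 2. The hepatocyte markers, given above, had a median log2 ratio of 2.41, while the 25 primary cilium genes had a median of -0.03 and the 9 tested dyneins a median of -0.19.

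**Figure D4:**
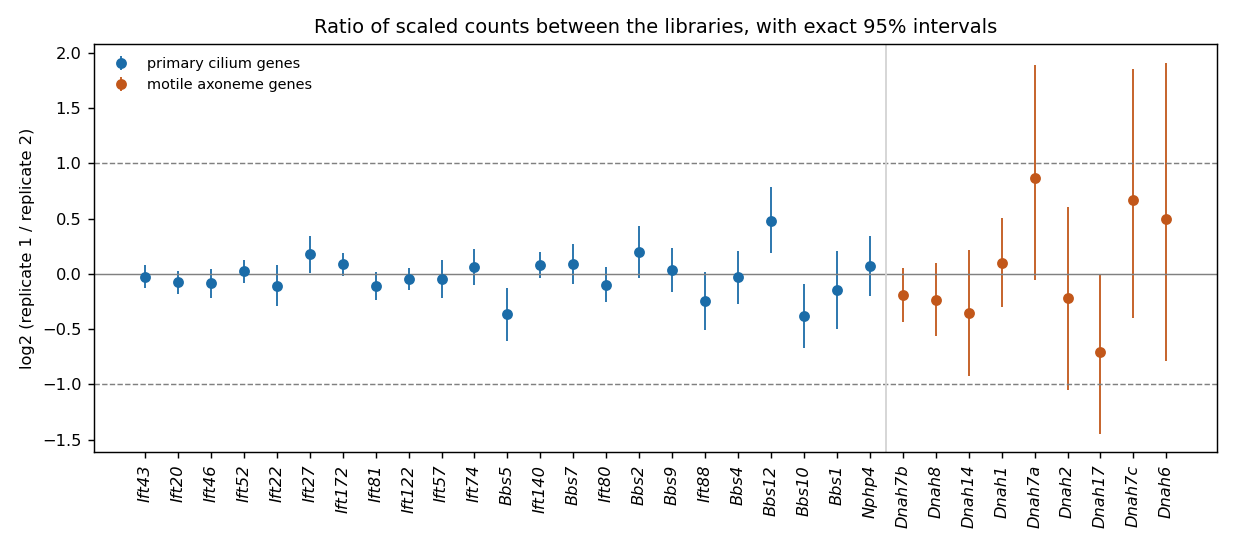
Log2 ratio of scaled counts, replicate 1 over replicate 2, for 32 of the 34 members with a summed count of at least 20, with exact 95% intervals of counting error. Primary cilium genes (blue) lie close to 0 with short intervals, dyneins (orange) have longer ones, and no ratio lies beyond the dashed lines at -1 and 1.

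Other subunits of the same machines, named outside the Ift and Bbs series, were also mostly detected. Of 10 IFT subunits under other names, 9 were detected, and limma called 9 above 1 TPM. The highest by mean level were Hspb11, the partner of Ift27, at 36.9 (replicate 1) and 34.6 TPM (replicate 2), and Wdr35, an IFT-A subunit, at 11.5 and 12.1 TPM. Ttc30a2, one of 3 related Ttc30 genes, was the lowest at 1.15 and 0.56 TPM. It was called between the libraries with a log2 ratio of 1.06 (exact test, adjusted p = 0.011), although reads of similar genes are divided by estimation. All 8 BBSome partners were detected, from Wdpcp at 5.76 and 6.26 TPM to Bbip1, the smallest BBSome subunit, at 44.6 and 45.4 TPM and Cct2, a subunit of the general chaperonin, at 133.9 and 142.0 TPM.

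Of 13 transport motor genes, 12 were detected. The dynein light chains Dynll1 (1033 (replicate 1) and 1027 TPM (replicate 2)) and Dynlrb1 (282.5 and 265.6 TPM) were highest, and they also serve cytoplasmic dynein. Kif3a, the kinesin-2 motor of outward transport, stood at 28.3 and 29.0 TPM. Dync2h1, the heavy chain of the return motor, stood at 6.14 (replicate 1) and 7.08 TPM (replicate 2). Kif17, a second kinesin-2, was under 1 TPM at 0.41 and 0.34 TPM. Dync2h1 thus lay above the highest axonemal heavy chain, Dnah7b, in both libraries.

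Of 19 listed transition zone and inversin compartment genes, 18 were matched to a protein-coding gene by symbol, and all 18 were detected. By mean level they ran from Anks6 at 2.13 (replicate 1) and 2.30 TPM (replicate 2) to Iqcb1 at 26.7 and 26.0 TPM. Tmem107 was the second highest, at 24.0 and 24.5 TPM. Of 10 genes of the ciliary membrane and its signalling, 9 were detected. Arl3, a GTPase that unloads lipidated cargo, stood at 73.9 and 68.7 TPM, and Pkd1 at 14.8 and 14.1 TPM. Gpr161, a receptor that restrains Hedgehog signalling, was lowest at 0.69 and 0.81 TPM.

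Lists tied to motility were lower. Of 15 other dynein subunits and assembly factors, 6 were detected, with medians of 0.57 (replicate 1) and 0.53 TPM (replicate 2). Dnal4, a light chain, stood at 29.0 and 28.9 TPM and Dnaaf5, an assembly factor, at 7.71 and 8.16 TPM, while Pih1d3 was at 0. Of 23 genes of docking complexes, rulers, radial spokes and the central pair, 7 were detected, with medians of 0.35 and 0.42 TPM. Rsph3a, a radial spoke gene, stood at 45.2 (replicate 1) and 38.0 TPM (replicate 2), and Gas8, of the nexin link, at 12.4 and 11.2 TPM. Armc4 and Cfap221 were at 0 in both libraries.

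Of 12 regulators of motile and multiple cilia, 4 were detected. Rfx transcription factors, which bind the X-box of ciliary promoters, made up 3 of them. Rfx3 stood at 5.23 (replicate 1) and 6.11 TPM (replicate 2), Rfx1 at 5.37 and 5.83 TPM, and Rfx2 at 2.99 and 3.45 TPM. Rfx4 stood at 0.15 and 0.33 TPM. Foxj1, the switch for motile cilia, stood at 0.31 (replicate 1) and 0.12 TPM (replicate 2), from 19 counts in replicate 1, and limma called it below 1 TPM (adjusted p = 0.016). It lies in the airway list as well, whose summed level is given above. The part of airway RNA in the dynein values was not tested.

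The fourth detected regulator was Myb, at 1.42 (replicate 1) and 1.15 TPM (replicate 2), which also acts in blood progenitors. The multiciliation genes were at or near 0. Ccno stood at 0.11 and 0.12 TPM and Deup1 at 0.07 TPM in both libraries. Trp73 stood at 0.03 and 0.04 TPM and Cdc20b at 0.03 TPM in both. Mcidas stood at 0.04 TPM in replicate 1 and 0 in replicate 2, and Gmnc at 0.02 and 0 TPM.

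**Figure D5:**
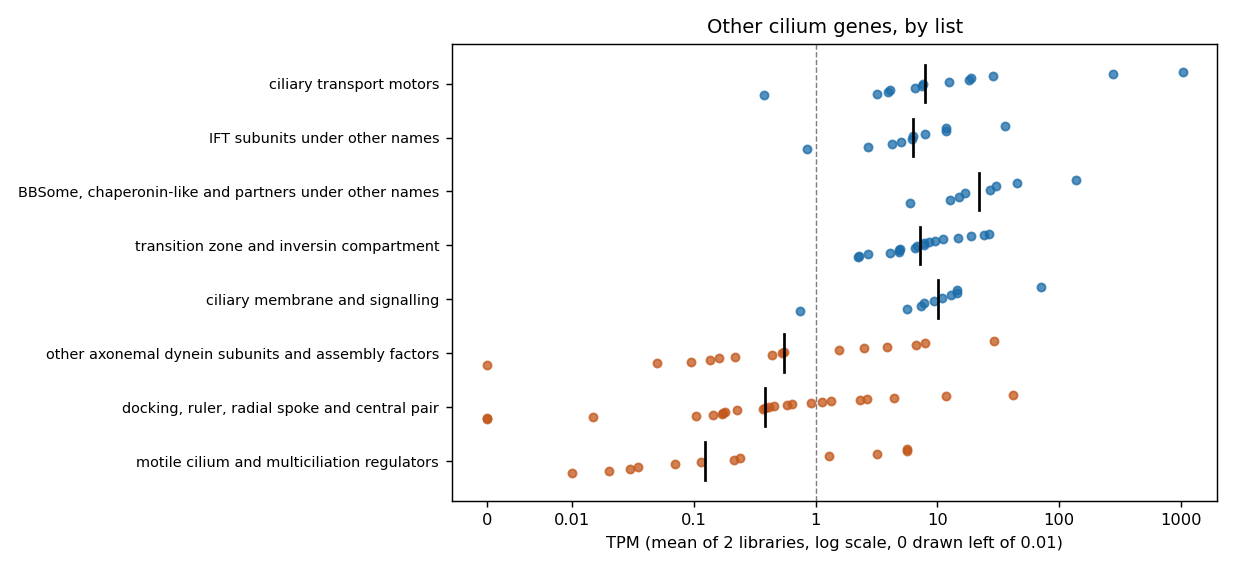
Mean TPM of each gene in 8 lists of other cilium genes on a log axis, with 0 drawn left of 0.01. Blue lists serve transport, the gate and the ciliary membrane, orange lists serve motility, and each black bar marks a list's median. The 5 blue medians lie above the dashed line at 1 TPM, and the 3 orange medians lie below it.

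Promoters of 34 members, 20 primary cilium genes and 14 dyneins, were matched in RefSeq (GRCm38.p6), each from 250 bases before to 50 bases after the start. They were searched on both strands for GTTGCC, one arm of the X-box that Rfx factors bind. It occurred in 9 of 20 primary cilium promoters (45.0%) and in 4 of 14 dynein promoters (28.6%), beside 14.1% of all 27025 promoters of that length. In the 250 bases before the start alone, the counts were 4 of 20 and 4 of 14, beside 11.8% of all promoters. The longer GTTGCCATG, which contains GTTGCC, occurred in no member's promoter, beside 0.88% of all promoters. At so low a share, its absence from 34 promoters says nothing particular about the members. The forkhead motif GTAAACA occurred in 1 promoter, that of Dnah17, beside 4.05% of all promoters. CCAAT occurred in 12 of 20 primary cilium promoters and 5 of 14 dynein promoters, beside 41.1% of all. Median GC content was 58.0% for primary cilium and 54.7% for dynein promoters, and 57.0% for promoters of protein-coding genes.

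The stretches around GTTGCC that lie before the start and outside annotated exons are given here, since both classes are represented and the Dnah7 copies share the match. Each runs along the gene's coding strand with the match in capitals. In Ift140 the capitals show the match on the other strand.
Bbs7, chr3:36613478-36613550 (minus strand): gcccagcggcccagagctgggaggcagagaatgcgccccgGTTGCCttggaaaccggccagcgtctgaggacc
Ift57, chr16:49699167-49699232 (plus strand): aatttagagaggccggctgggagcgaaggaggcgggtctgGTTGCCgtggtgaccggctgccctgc
Ift140, chr17:25015937-25016022 (plus strand): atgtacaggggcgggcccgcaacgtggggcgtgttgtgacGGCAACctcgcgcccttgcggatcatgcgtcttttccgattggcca
Dnah7a, chr1:53706939-53707024 (minus strand): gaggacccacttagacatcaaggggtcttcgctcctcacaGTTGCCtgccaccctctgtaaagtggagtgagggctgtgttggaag
Dnah7b, chr1:46066650-46066735 (plus strand): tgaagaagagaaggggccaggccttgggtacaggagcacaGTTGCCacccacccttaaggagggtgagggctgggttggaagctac
Dnah7c, chr1:46425268-46425344 (plus strand): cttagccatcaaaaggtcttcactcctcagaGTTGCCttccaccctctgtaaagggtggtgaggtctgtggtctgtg

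The match began 121 bases before the RefSeq start in Bbs7, 87 in Ift57 and 109 in Ift140. In the dyneins it began 200 bases before the start in Dnah7a, 163 in Dnah7b and 219 in Dnah7c. Genes that share the match differed widely in level, as Ift57 stood at 15.2 (replicate 1) and 15.4 TPM (replicate 2), and Dnah7c at 0.07 and 0.05 TPM. A match is a description of letters and no evidence of binding.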

How the data were processed

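Polyadenylated RNA of 2 embryonic mouse heart libraries was measured, each in a gene and a transcript table. The authors deposited the tables on GENCODE releases M21 and M4 (mm10), per the text deposited beside them. For aligner, counter and strand, nothing is given in the sources used here; columns follow the RSEM layout. The deposited expected counts are estimates that divide ambiguous reads among loci. The deposited TPM values are scaled by effective length to a fixed sum over all rows, spike-ins included. The deposited FPKM values are length-scaled per fragment total, per the file headers. The authors' transcript percent is a transcript's share of its gene's TPM. The deposited posterior mean TPM served as an alternative.

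M21 was the main table. Symbols, biotypes and coordinates came from GENCODE M21 by gene identifier. The members, the gene lists and the tests were chosen with earlier results of these data known. Values of 2 members are not reported here, though counts and medians include them. Every other member is named, and of the other lists the highest genes, the lowest and all motility regulators. Levels against 1 TPM were tested with limma 3.58.1 (intercept-only, trend, 0.1 added to each TPM) where the counts of both libraries summed to 3 or more. Libraries were compared with an exact binomial test (scipy 1.17.1) on rounded expected counts scaled by TMM in edgeR 4.0.16, where these summed to 20 or more. DESeq2 1.42.0 size factors were an alternative. p-values were adjusted by Benjamini-Hochberg over all genes tested. Tests were checked on simulated data, with counting error alone for the exact test and a small added spread for limma. That check cannot show how the tests behave under a larger spread between libraries. Intervals are exact 95% and cover counting error only, since PCR reads without molecular identifiers are not independent molecules. Coding sequences of the Dnah7 copies were aligned with mafft 7.526. Protein sequences were not used here.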

Additional observations from a re-analysis of the deposited data

How the results depend on the processing

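The difference between the classes kept its direction under every alternative run, and was 5.08 on expected counts not divided by length. Detected primary cilium genes fell to 24 at a threshold of 2 TPM and to 20 at 5 TPM. Without replicate 1 or without replicate 2, the difference of medians was 6.06 to 6.08, 25 primary cilium genes were detected in each case, and their median was 11.3 to 12.1 TPM. The motile median was 0.07 to 0.08 TPM and 3 to 5 dyneins were detected, 5 in replicate 1 alone. Other pseudocounts gave differences from 3.56 to 7.11, a range set by how genes near 0 are scaled. The dynein values were less stable. Detected dyneins fell to 0 at thresholds of 2 TPM and 5 TPM and on protein-coding models alone, and to 1 on release M4. The motile median was 0.06 TPM on M4, 0.33 as posterior mean TPM, 0.05 as FPKM and 0.035 on protein-coding models. The primary cilium median was 8.06 as FPKM and 9.77 TPM on protein-coding models. With a summed count of at least 20, fewer dyneins were tested and 4 were called below 1 TPM. On M4, limma called 1 dynein above 1 TPM, and the log2 level against 1 TPM changed sign for Bbs1 (-0.028), Dnah1 (-1.24) and Dnah8 (-0.95). The cause was not tested. Beside the counts of genes detected or called under these alternatives, no share of protein-coding genes is given here. Without the fold requirement, 2 members differed between the libraries. The mean share of the dominant transcript over detected members was 62.1% of TPM, 80.4% of expected counts and 68.4% on M4. GTTGCC was found in 8 promoters in the 250 bases before the start, a shorter window. The analyses on protein-coding models and on members with no exon overlap (difference 6.36) were chosen after seeing the data. No paired analysis was possible because both libraries belong to 1 group. The comparison of protein sequences was not run, and coding sequences of the Dnah7 copies were compared instead. Depth limits the dyneins, of which 6 had a summed count under 20 and were not compared between the libraries.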
